A study of Rattus norvegicus with 26 samples.

Results

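Small leucine-rich proteoglycans were examined as a set of 7 genes, Dcn (decorin), Lum (lumican), Bgn (biglycan), Fmod (fibromodulin), Omd (osteomodulin), Ogn (osteoglycin) and Prelp, each found by its annotated symbol on the array. They were 7 of the 14217 genes measured and were read by 10 probe sets, 4 of them for Ogn and 1 for each other gene. RNA from primary cell cultures of rat cerebral cortex, and from mixtures of that RNA, had been hybridised to 26 Affymetrix arrays. Neuronal, astrocytic, oligodendrocytic and microglial cultures had 4 replicate arrays each, called N1 to N4, A1 to A4, O1 to O4 and M1 to M4 here. The cultures were prepared from P1 pups, received no named treatment, and the strain was not given in the labels. M4 was described as a mixture in 1 label and as a microglial culture in its title and cell type, and was kept as a culture. The 5 mixtures had 2 replicate arrays each. The astrocytic share was 0.75 in NA1, 0.5 in NA2 and 0.25 in NA3, and neurons supplied the remainder. In NAO and NAOM neurons supplied 0.5. The rest of NAO came in equal parts of 0.25 from astrocytes and oligodendrocytes, and that of NAOM from astrocytes (0.2), oligodendrocytes (0.2) and microglia (0.1). Replicate 1 of each mixture was made from N1 and A1, with O2 and M2 where those types were present, and replicate 2 from N2 and A4, with O4 and M3. The labels did not say whether replicate cultures came from separate litters or preparations, so p-values measure the spread between these arrays only.

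Small leucine-rich proteoglycans are secreted proteins with a core of leucine-rich repeats, many of which carry chondroitin, dermatan or keratan sulfate chains. They bind fibrillar collagens and shape the assembly of collagen fibrils, and several of them also bind growth factors such as transforming growth factor beta. In the brain they are known chiefly from the meninges, blood vessel walls and scar tissue, where collagen is laid down.

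Values were log2 expression, on which a difference of 1 is a fold of 2, and the median of all probe sets on an array lay between 5.25 and 5.41. Mean levels of the neuron marker list lay between 10.60 and 10.74 on the neuronal arrays and at or below 6.65 on the other culture arrays. The astrocyte list averaged 9.36 to 10.37 on the astrocytic arrays and also 7.15 to 9.11 on the neuronal arrays, and 2 of its 11 measured markers, Gjb6 and Slc1a2, were low in the astrocytic cultures (means of 3.29 and 4.65). The oligodendrocyte list averaged 9.89 to 11.23 in its own cultures and 7.59 to 9.06 in the microglial ones, and the microglia list averaged 10.44 to 11.21 in its own and 8.10 to 9.32 in the oligodendrocytic ones. Among the astrocytic arrays, A2 and A3 were closest over all probe sets (SD of the difference 0.219), and A4 was farthest from the others (0.628 to 0.735).

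The members lie in small clusters in the GRCr8 annotation of RefSeq. Ogn and Omd are neighbours, as are Prelp and Fmod, and Dcn and Lum. Upstream sequences of 300 bases, from 250 before to 50 after the start of the gene, were given for Fmod, Omd, Ogn and Lum (RefSeq, GRCr8). None was given for Bgn, Prelp or Dcn, so these could not be compared. The 4 windows are shown because Fmod, Omd and Ogn were high in the same culture and Lum was not. Capitals mark every match on either strand to 5 motifs, which were the TATA box TATAAA, the GC box GGGCGG, the AP-1 site TGANTCA, the E-box CANNTG and the nuclear factor I (NFI) site TTGGC. Fmod is read from the plus strand at chr13:48045317-48045616, Omd from the minus strand at chr17:15274821-15275120, Ogn from the minus strand at chr17:15258946-15259245, and Lum from the plus strand at chr7:34245456-34245755.
Fmod: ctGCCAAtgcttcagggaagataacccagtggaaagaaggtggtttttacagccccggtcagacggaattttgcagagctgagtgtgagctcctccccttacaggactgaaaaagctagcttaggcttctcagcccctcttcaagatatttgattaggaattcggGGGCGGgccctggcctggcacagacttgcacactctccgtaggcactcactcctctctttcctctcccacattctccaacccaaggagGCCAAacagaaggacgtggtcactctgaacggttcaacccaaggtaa
Omd: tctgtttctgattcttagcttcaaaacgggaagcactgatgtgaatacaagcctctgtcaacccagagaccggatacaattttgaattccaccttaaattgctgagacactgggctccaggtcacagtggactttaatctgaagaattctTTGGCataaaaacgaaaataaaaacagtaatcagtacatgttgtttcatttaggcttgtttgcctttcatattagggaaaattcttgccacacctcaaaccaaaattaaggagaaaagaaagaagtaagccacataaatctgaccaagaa
Ogn: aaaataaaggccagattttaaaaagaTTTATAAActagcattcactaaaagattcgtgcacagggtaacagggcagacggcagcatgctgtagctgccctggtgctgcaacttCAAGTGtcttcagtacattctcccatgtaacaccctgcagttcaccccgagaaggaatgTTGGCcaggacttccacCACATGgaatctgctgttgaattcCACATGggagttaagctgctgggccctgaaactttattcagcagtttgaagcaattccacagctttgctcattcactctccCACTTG
Lum: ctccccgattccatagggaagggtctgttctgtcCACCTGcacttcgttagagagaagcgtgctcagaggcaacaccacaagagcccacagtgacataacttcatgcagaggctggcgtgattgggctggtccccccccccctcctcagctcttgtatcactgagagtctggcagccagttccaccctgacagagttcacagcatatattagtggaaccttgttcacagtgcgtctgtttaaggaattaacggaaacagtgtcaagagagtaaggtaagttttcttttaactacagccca
The NFI half-site letters occurred in the 3 windows of Fmod (2 matches), Omd and Ogn (1 each), and were not in the Lum window. They occurred in 45.8% of all 33469 promoters of this length, so a match is common. Ogn held 4 E-boxes, and its TATA box letters stood on both strands in 2 overlapping matches at positions -224 and -222 from the start. Lum held 1 E-box and Fmod 1 GC box. The E-box letters occurred in 72.1% of all promoters, the GC box in 33.1%, the TATA box in 14.2% and the AP-1 letters, which were in none of the 4 windows, in 7.33%. The windows were 52.7% G and C for Fmod, 37.7% for Omd, 46.0% for Ogn and 50.7% for Lum, beside a median of 51.7% over all promoters.

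The first comparison asked in which culture each gene was expressed. Bgn, Fmod, Omd, Ogn and Prelp were all highest in the astrocytic cultures, by 4.26 to 6.79 on the log2 scale over the mean of the other 3 cultures, whereas Dcn and Lum lay low on every array. So 5 of the 7 members were higher in astrocytic cultures and 0 lower (limma, Benjamini-Hochberg adjusted p under 0.05 and a log2 difference of at least 1). Over all 31042 probe sets, 8.14% were called higher and 7.55% lower in that comparison. The same 5 members were higher in astrocytic cultures than in each other culture taken alone, which 4.21% of probe sets were. These comparisons share the astrocytic arrays. The median difference was 4.48 over the 7 members and -0.04 over all probe sets.

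**Figure D1:**
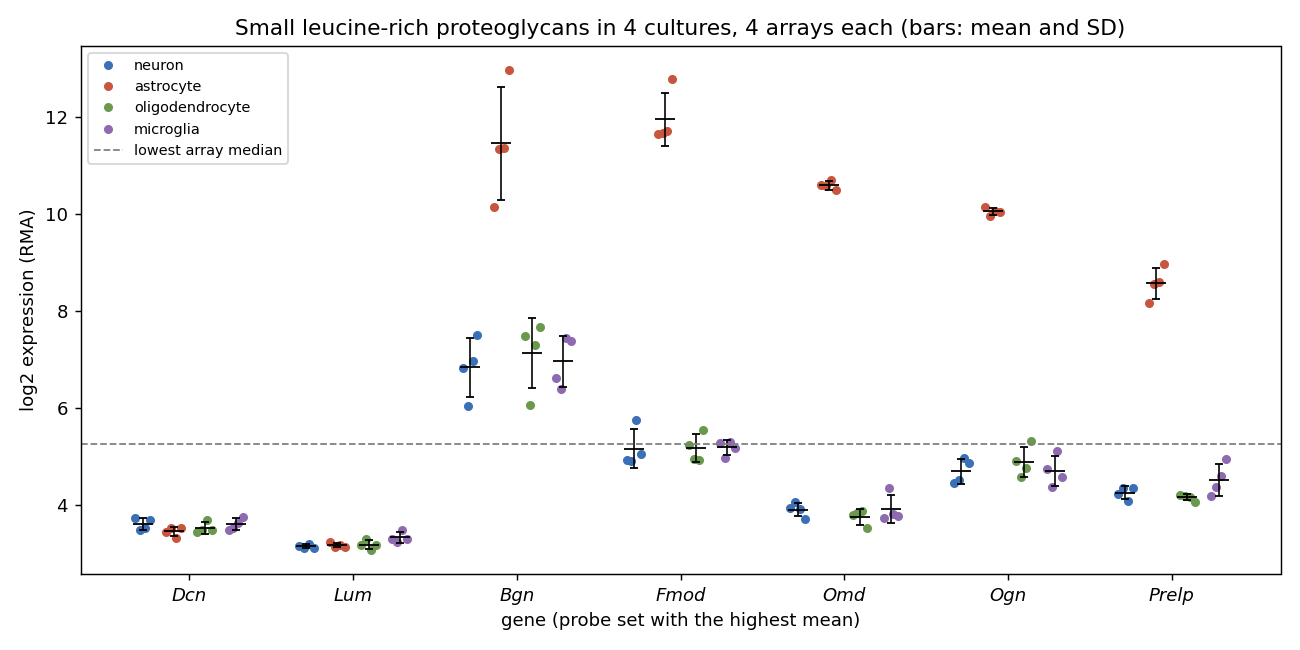
Log2 expression of the 7 genes (horizontal axis, probe set with the highest mean) on the 16 culture arrays, with 1 point per array in replicate order, black bars for the mean and SD of 4 arrays, and a dashed line at the lowest array median. The astrocytic points of Bgn, Fmod, Omd, Ogn and Prelp lie above all other points of the same gene, and Dcn and Lum lie below the dashed line in every culture.

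Fmod and Prelp, neighbours on the chromosome, are taken first. Fmod encodes fibromodulin, a collagen-binding protein with keratan sulfate chains that affects fibril thickness. Fmod measured 11.65, 11.67, 11.70 and 12.78 in A1 to A4. On the other 12 culture arrays its lowest and highest values were 4.91 and 5.75. No astrocytic array overlapped the others, and A4 stood above A1 to A3. The difference was 6.79 ± 0.20 (SE; adjusted p = 6.05e-12, limma). That is a fold of 110.5. The mean in each other culture lay below the median of every array, so the size of the fold is uncertain. Prelp encodes a proline- and arginine-rich member that binds collagen and the heparan sulfate of basement membranes. Its values in A1 to A4 were 8.17, 8.55, 8.59 and 8.96. Elsewhere Prelp lay between 4.06 and 4.94, again with no overlap and below the array medians. The difference was 4.26 ± 0.14 (SE; adjusted p = 9.49e-12, limma), or 19.2-fold.

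Omd and Ogn, the other neighbouring pair, had a narrower spread across the astrocytic replicates than Bgn, Fmod and Prelp at their brightest probe sets. Osteomodulin, encoded by Omd, is a keratan sulfate proteoglycan best known from mineralised tissue. Omd measured 10.59, 10.57, 10.70 and 10.49 in A1 to A4, with an SD of 0.09. On the other 12 culture arrays it lay between 3.51 and 4.35. No array of another culture came near the astrocytic values, and the difference was 6.74 ± 0.11 (SE; adjusted p = 7.51e-15, limma), or 107-fold. Osteoglycin, encoded by Ogn, is also called mimecan and binds collagen. Its brightest probe set read 10.14, 9.96, 10.07 and 10.04 in A1 to A4, with an SD of 0.07, and 4.37 to 5.31 on the other 12 arrays. The difference was 5.30 ± 0.14 (SE; adjusted p = 1.91e-12, limma), or 39.3-fold. For Omd and Ogn too, the means in the other cultures lay below the array medians, so the size of these folds is uncertain. All 4 Ogn probe sets gave this result, and the other 3 differed by 5.50 to 6.78.

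Biglycan, encoded by Bgn, is a chondroitin and dermatan sulfate proteoglycan that binds collagen and can signal through Toll-like receptors when released from the matrix. Bgn measured 10.15, 11.34, 11.36 and 12.97 in A1 to A4. Of the members, it had the widest spread across the astrocytic replicates, with an SD of 1.16. It was also the only member whose means outside the astrocytic cultures lay above the array medians. N1 to N4 read 6.83, 6.03, 6.96 and 7.50. O1 to O4 read 7.49, 6.06, 7.30 and 7.67, and M1 to M4 read 6.62, 6.39, 7.45 and 7.37. The lowest astrocytic array was still above the highest of these 12, O4. The difference was 4.48 ± 0.41 (SE; adjusted p = 4.5e-07, limma), a fold of 22.3. Without A4 it was 3.98 ± 0.37 (SE; adjusted p = 6.01e-07, limma).

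Decorin and lumican, the collagen-binding proteoglycans of the remaining neighbouring pair, showed no such pattern. Dcn averaged 3.60 ± 0.13 in neuronal, 3.45 ± 0.10 in astrocytic, 3.52 ± 0.12 in oligodendrocytic and 3.59 ± 0.12 in microglial cultures (SD, n = 4). These means were brighter than only 7.91% to 12.8% of probe sets, and the astrocytic difference was -0.13 ± 0.08 (SE; adjusted p = 0.226, limma). Lum averaged 3.14 ± 0.04, 3.16 ± 0.04, 3.17 ± 0.09 and 3.32 ± 0.11 in the same order (SD, n = 4). It was brighter than 1.78% to 3.41% of probe sets, with an astrocytic difference of -0.05 ± 0.06 (SE; adjusted p = 0.586, limma). Each of these genes was read by 1 probe set, so a transcript that the probe set does not match could not be seen, and the values do not show that the genes were silent.

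Outside the astrocytic cultures the order of levels was not resolved. The 7 members gave 0 calls between neuronal and oligodendrocytic cultures, where 21.6% of probe sets were called. They gave 0 between neuronal and microglial cultures, where 25.7% were called, and 0 between oligodendrocytic and microglial cultures, where 10.6% were called (limma). At an unadjusted p under 0.05 these counts were 0, 1 (Lum) and 1 (Prelp), and with the replicate number as a block they were again 0. The largest difference among these 3 comparisons was 0.36 for Prelp, 4.15 in oligodendrocytic against 4.52 in microglial cultures (adjusted p = 0.12, limma). Against a mean that includes the astrocytic cultures, the same 5 members were lower in each other culture. The background of lower calls was 10.7% for neuronal, 4.61% for oligodendrocytic and 8.95% for microglial cultures, and these calls carry no more than the astrocytic comparison does. The astrocyte list averaged 7.15 to 9.11 on the neuronal arrays, with Gfap at a mean of 11.65. The means of Fmod, Omd, Ogn and Prelp in neuronal cultures lay below the median of every array. A link between these values was not tested.

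Other genes of the family did not share the astrocytic level. Of 10 further small leucine-rich repeat genes listed, 7 were measured, and 0 were called in either direction in the astrocytic comparison. Aspn, the neighbour of Omd and a biglycan relative, averaged 3.25 in astrocytic cultures and 3.23 to 3.27 elsewhere. Optc, the neighbour of Prelp, averaged 3.47 in astrocytic cultures and 3.44 to 3.58 elsewhere. Each cluster with a pair of astrocyte-high members was flanked by a relative with a low signal in all 4 cultures. Chadl was highest in oligodendrocytic cultures, with a mean of 6.56 against 5.58 in astrocytic ones.

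Across the 16 culture arrays, the genes most like each member in profile were all high in astrocytic cultures, and that separation shapes every value of r given here. For Bgn they were Tead3 (r = 0.981) and Wwtr1 (r = 0.979), a transcription factor and a coactivator of the Hippo pathway, and Rassf9 (r = 0.979). For Fmod they were Cfap100 and Gstm2 (r = 0.996 each) and Ogn itself (r = 0.994). Omd was nearest to Gstm2 (r = 0.993), Col6a2 (r = 0.991), which encodes a collagen VI chain, and Cfap100 (r = 0.990). Ogn was nearest to Rarres2, Fmod and Gstm2 (r = 0.994 each), and Prelp to Cfap100 (r = 0.995), Adamtsl4 (r = 0.992) and Pdlim2 (r = 0.991). Genes with r above 0.95 numbered 65 for Bgn, 156 for Fmod, 147 for Omd, 157 for Ogn and 134 for Prelp. Those named are thus the top of long lists.

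Genes that work with these proteoglycans were read from lists, which were chosen with earlier results of these data known. Of 13 fibrillar and associated collagens, 10 were higher and 0 lower in astrocytic cultures, with a median difference of 3.12. The largest differences were those of Col12a1 (4.93 ± 0.27), Col5a2 (4.78 ± 0.60) and Col6a2 (4.51 ± 0.14; SE). Of 10 genes for collagen hydroxylation and crosslinking, 9 were higher and 0 lower. The lysyl oxidases Lox (3.94 ± 0.77), Loxl3 (3.50 ± 0.14) and Loxl2 (3.12 ± 0.70; SE) led that list. Of 10 proteases that process matrix proteins, 5 were higher and 0 lower, led by Mmp14 (4.17 ± 0.26), Adamts5 (3.41 ± 0.19) and Pcolce (1.74 ± 0.41; SE), which encodes an enhancer of procollagen processing. Part of these results rested on A4. Without it 9 collagens, 7 crosslinking genes and 4 proteases were higher, with 0 lower in each list. The list medians went from 3.12 to 2.17, from 2.21 to 1.73 and from 0.67 to 0.18 in that order.

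The enzymes that build the sugar chains were less uniform. Of 20 genes of chondroitin and dermatan sulfate synthesis, 3 were higher and 2 lower in astrocytic cultures, with a median difference of 0.27. The higher ones were Dsel (2.38 ± 0.26), an epimerase that makes dermatan sulfate, and the polymerising factors Chpf (1.46 ± 0.15) and Chpf2 (1.10 ± 0.19; SE). The lower ones were Csgalnact1 (-1.58 ± 0.38) and Chst12 (-1.53 ± 0.14; SE). Of 7 keratan sulfate genes 2 were higher and 0 lower, the sulfotransferase gene Chst2 (1.54 ± 0.19) and the galactosyltransferase gene B4galt4 (1.27 ± 0.16; SE). The 2 tyrosine sulfotransferase genes, Tpst1 and Tpst2, gave 0 calls, with differences of 0.81 ± 0.15 and 0.44 ± 0.22 (SE).

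Among 9 growth factors that these proteins or their matrix bind, 3 were higher and 3 lower. Ccn2 (5.52 ± 0.62), Tgfb3 (4.44 ± 0.34) and Tgfb2 (2.51 ± 0.22) were higher, and Igf1 (-2.18 ± 0.74), Bmp4 (-1.28 ± 0.43) and Tgfb1 (-1.15 ± 0.26; SE) lower. Among 10 receptors, Egfr (2.47 ± 0.33), Cd44 (2.04 ± 0.26) and Igf1r (1.37 ± 0.20) were higher. The biglycan receptors Tlr2 (-3.23 ± 0.23) and Tlr4 (-1.47 ± 0.25; SE), by contrast, were lower in astrocytic cultures. Tlr2 averaged 10.15 and Tlr4 8.07 in microglial cultures.

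Some markers of other collagen-making cells moved with the same comparison, but most did not. Median differences were 0.11 for the meningeal fibroblast list, 0.15 for the pericyte and smooth muscle list and -0.01 for the endothelial list. Col1a1, Col1a2 and Col3a1 stand in both the meningeal and the collagen list. Of 20 meningeal fibroblast markers, 5 were higher in astrocytic cultures (Col1a1, Col1a2, Col3a1, Igfbp2 and S100a4) and 1, Pdgfra, was lower. The list averaged 5.63 to 6.90 on the astrocytic arrays, 4.87 to 5.24 on the neuronal, 5.07 to 5.63 on the oligodendrocytic and 4.81 to 5.14 on the microglial ones. The other 14 were not called and averaged 3.38 (Tbx18) to 5.78 (Thy1) in astrocytic cultures. Of 12 pericyte and smooth muscle markers, 5 were higher and 0 lower (Tagln, Cnn1, Acta2, Pdgfrb and Myh11), and the list averaged 6.29 to 7.33 on the astrocytic arrays against 4.71 to 5.63 on all others. The other 7 of that list, which include Rgs5, Cspg4, Notch3 and Mcam, were not called and averaged 3.41 (Abcc9) to 7.36 (Mcam) in astrocytic cultures. Of 9 endothelial markers, 0 were called (limma). The part of such cells in the levels of the members was not tested, and in RNA from whole cultures fewer cells of a type and less RNA per cell cannot be told apart.

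**Figure D2:**
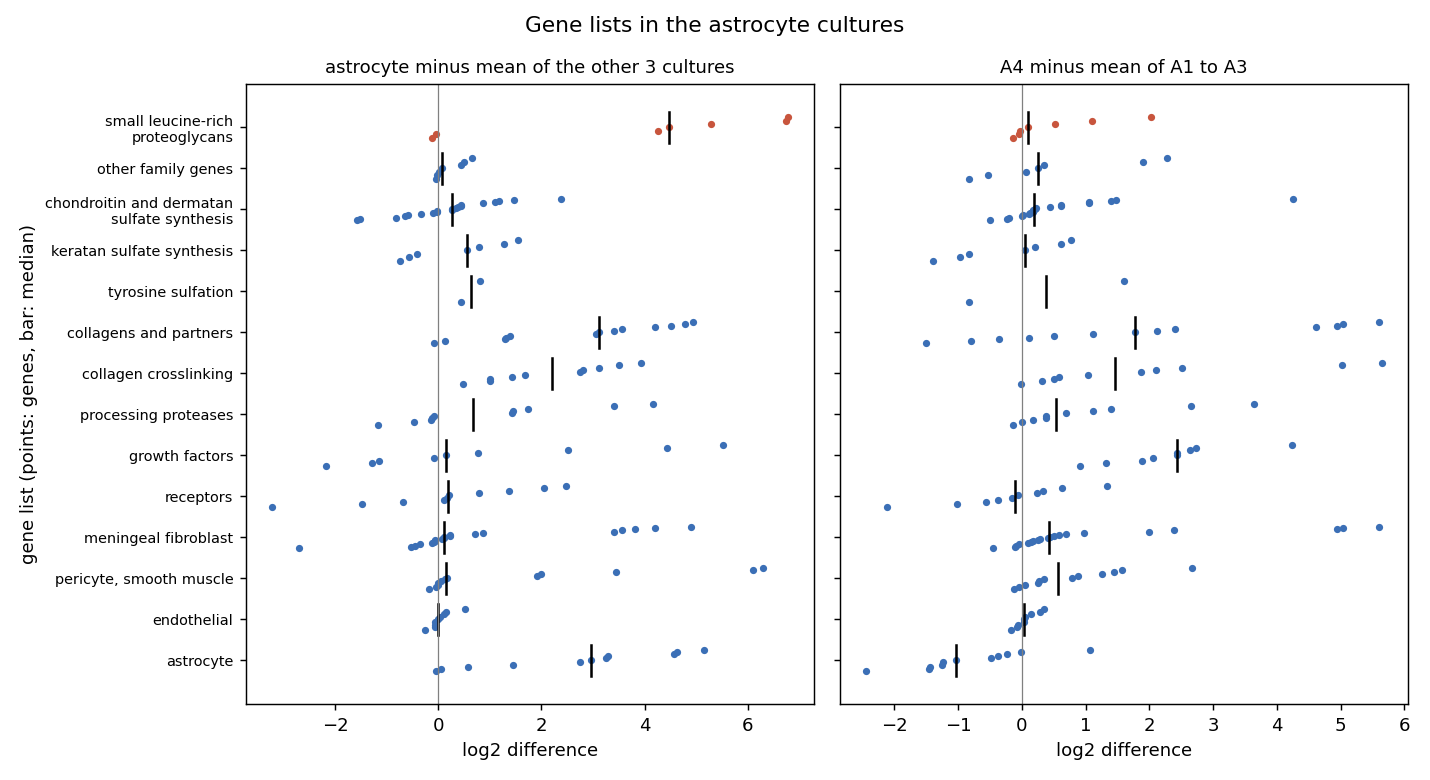
Log2 difference of each measured gene (points) and list median (bars) for the 7 members in red and for related gene lists in blue, in the astrocytic against the other cultures (left) and in A4 against A1 to A3 (right). The collagen and crosslinking lists have medians above 1 in both panels, whereas the members have a median of 4.48 on the left and 0.09 on the right.

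The astrocytic replicates themselves differed, and A4 differed most. Bgn and Fmod were higher in A4 than in A1 to A3, while Omd, Dcn, Lum and the 4 Ogn probe sets differed by -0.32 to 0.56. This comparison has 1 array against 3 of the same labelled group and is a description with no test. A gene counted as higher when A4 lay at least 1 above the mean of A1 to A3 and outside their range. Of the 7 members 2 counted as higher and 0 as lower, beside 3.16% of all probe sets higher and 5.19% lower. Bgn in A4 exceeded the mean of A1 to A3 by 2.02, a fold of 4.07, and exceeded A1 alone by 2.83, a fold of 7.10. A1 in turn lay below A2 and A3 for this gene. Fmod in A4 exceeded the mean of A1 to A3 by 1.11, a fold of 2.15, where the SD of those 3 arrays was 0.03. Prelp was 0.53 higher. Omd differed by -0.13, with A4 below each of A1 to A3, and Ogn by -0.02 at its brightest probe set and -0.32, 0.36 and 0.56 at the others, which lay outside the range of A1 to A3. The differences were 0.09 for Dcn and -0.05 for Lum.

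The lists of matrix genes were counted by the same rule. Of 13 collagens 8 were higher in A4 and 1 lower, and of 10 crosslinking genes 6 were higher and 0 lower. Col1a1 measured 6.78, 7.70, 7.72 and 13.01 in A1 to A4. Lox measured 6.66 and 6.72 in A2 and A3, less in A1 and 12.12 in A4. These genes were chosen for this comparison after their values were seen. Their differences were 5.61 for Col1a1, a chain of the main fibrillar collagen, and 5.66 for Lox, which crosslinks it, beside -0.13 for Omd and -0.32 to 0.56 over the 4 Ogn probe sets. Of 9 growth factors 8 were higher and 0 lower, of 20 chondroitin and dermatan sulfate genes 5 were higher and 0 lower, and of 7 keratan sulfate genes 0 were higher and 1, Chst1, was lower. Papss2, which makes the sulfate donor for these chains, measured 5.79, 5.35, 5.19 and 9.69 in A1 to A4, a gene also singled out after its values were seen.

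Dcn and Lum, which are commonly used to mark fibroblasts, measured 3.52 and 3.13 in A4. The meningeal list was 5 higher (Col1a1, Col1a2, Col3a1, Thy1 and Twist1) and 0 lower of 20 in A4, where it averaged 6.90 against 5.63 to 5.79 in A1 to A3. Its other 15 markers differed by -0.45 (S100a4) to 0.98 (Igfbp2). The astrocyte list was 1 higher and 6 lower of 11, with a mean of 9.36 in A4 against 10.05 to 10.37. Gfap measured 12.04 in A4 against 13.35 to 13.73, and Aqp4 9.97 against 12.28 to 12.67. The part of a different mix of cells in the A4 values of Bgn and Fmod was not tested.

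Among the other family genes, Podn and Podnl1 were higher in A4 and Ecm2 was highest in A1; they are named because of these values. Podn measured 5.18, 5.00, 4.99 and 7.34 in A1 to A4, and Podnl1 3.81, 3.91, 3.53 and 5.65. Ecm2, which lies in the same chromosomal cluster as Ogn and Omd, measured 5.76, 3.81, 3.81 and 3.64. So the family held genes highest in A4 and a gene highest in A1.

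The mixtures gave a second reading of A1 and A4, because replicate 1 of each mixture was made with A1 and replicate 2 with A4. Replicate 2 minus replicate 1 was positive for Bgn in 5 of 5 mixtures, at 3.30 to 3.78, and for Fmod in 5 of 5, at 0.88 to 1.34. Prelp was also higher in replicate 2 of 5 of 5 mixtures, by 0.55 to 1.24. Omd differed by -0.21 to 0.00, with 1 of 5 positive. Computed from the parent cultures and the stated fractions, these differences should have been 2.48 to 2.78 for Bgn, 1.10 to 1.13 for Fmod, 0.67 to 0.78 for Prelp and -0.10 to -0.09 for Omd. Bgn differed most in mixtures and parents alike, and its difference in each mixture was larger than its parents gave. The brightest Ogn probe set differed by -0.33 to 0.97, positive in 4 of 5 mixtures, where its parents gave -0.10 to -0.06. The mixtures share the RNA of A1 and A4 and are no new cultures.

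**Figure D3:**
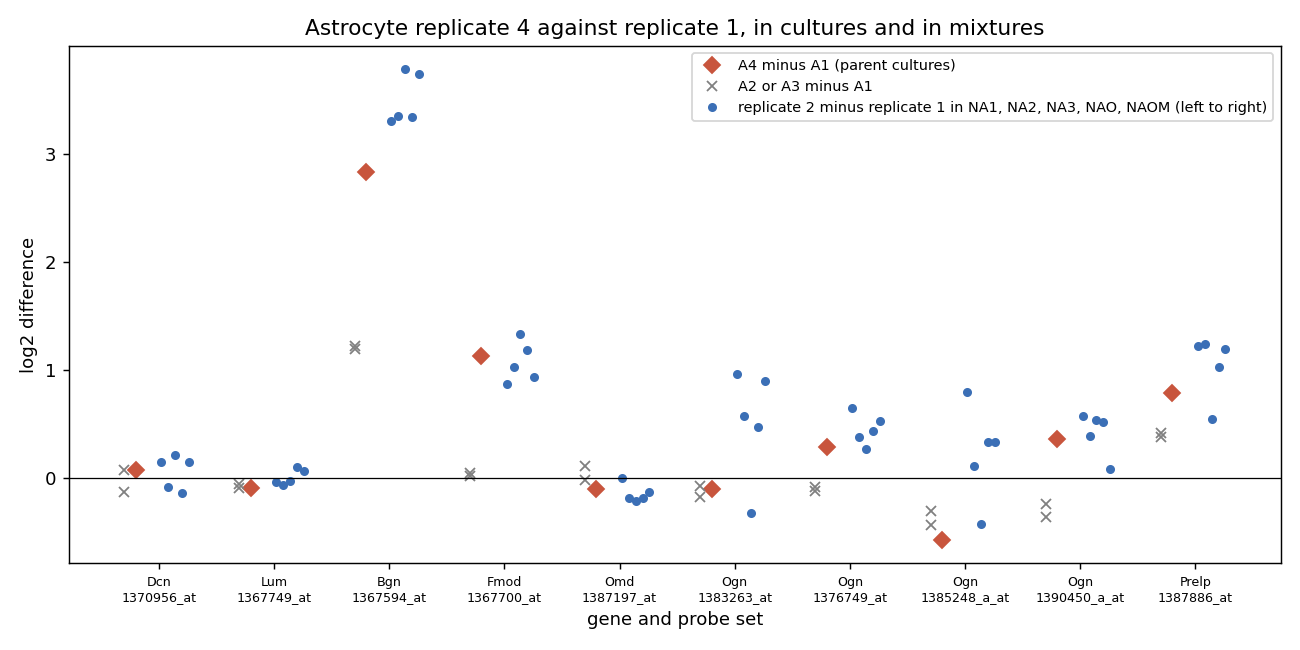
Log2 differences of each member probe set (horizontal axis), with red diamonds for A4 minus A1, grey crosses for A2 and A3 minus A1, and blue points for replicate 2 minus replicate 1 in the 5 mixtures. Bgn stands highest, with 2.83 between the parent cultures and 3.30 to 3.78 in the mixtures, and Omd lies between -0.21 and 0.00 in the mixtures.

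The mixtures also gave the levels of the members as astrocytic RNA was replaced. They dilute RNA of the same cultures, so a fall of the 5 astrocyte-high members was fixed beforehand and is no separate evidence. All 5 fell from NA1 to NA3 in both replicates. Bgn measured 9.52, 9.04 and 8.12 in NA1, NA2 and NA3 of replicate 1 and 12.81, 12.39 and 11.90 in replicate 2. Fmod measured 11.34, 10.73 and 9.43 in replicate 1 and 12.22, 11.76 and 10.77 in replicate 2. For both genes replicate 2 was higher at each fraction, with 1 array per replicate and fraction. Omd measured 10.12, 9.44 and 8.30 in replicate 1 and 10.12, 9.25 and 8.09 in replicate 2, so its replicates lay within 0.21 of each other. Ogn measured 9.19, 8.63 and 7.90 in replicate 1 and 10.15, 9.21 and 7.58 in replicate 2. Prelp measured 7.66, 6.68 and 6.14 in replicate 1 and 8.89, 7.92 and 6.69 in replicate 2, higher in replicate 2 at each fraction.

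The slope on the neuronal fraction, in log2 units per unit of fraction over 6 arrays, was called for 2 of the 7 members, Omd and Ogn, both lower, where 5.01% of all probe sets were called lower. The slope was -3.85 ± 0.29 for Omd (SE; adjusted p = 0.00404) and -3.86 ± 0.71 for Ogn (SE; adjusted p = 0.0159, limma). With the replicate number as a block, which takes out the difference between the parent cultures, 5 of the 7 were lower, where 11.7% of all probe sets were. Bgn then had a slope of -2.31 ± 0.30 (SE; adjusted p = 0.00222, and 0.749 without the block, limma). Fmod had -3.35 ± 0.38 (SE; adjusted p = 0.00139, and 0.107 without the block, limma), and Prelp -3.72 ± 0.36 (SE; adjusted p = 0.00102, and 0.0641 without the block, limma). Dcn and Lum had slopes of 0.39 and -0.26 and were not called in either fit.

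Slopes within the replicates differed for 1 of the 7 members. Of all 31042 probe sets, 602 were called higher and 770 lower in that difference. That of Ogn was -2.57 in replicate 1 and -5.15 in replicate 2, a difference of -2.58 ± 0.57 (SE; adjusted p = 0.048, limma). The other 3 Ogn probe sets gave differences of -2.43, -0.76 and -0.08 with adjusted p of 0.0537, 0.419 and 0.945, so the difference was not shared by all probes of the gene. For Bgn the slopes were -2.79 and -1.83 (adjusted p of the difference 0.307, limma). Slopes computed from the parents were -2.51 and -3.11 for Bgn and between -3.14 and -3.01 for Fmod, Omd and Ogn. Bgn was thus the member whose slope in replicate 2 fell shortest of its parents' value.

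**Figure D4:**
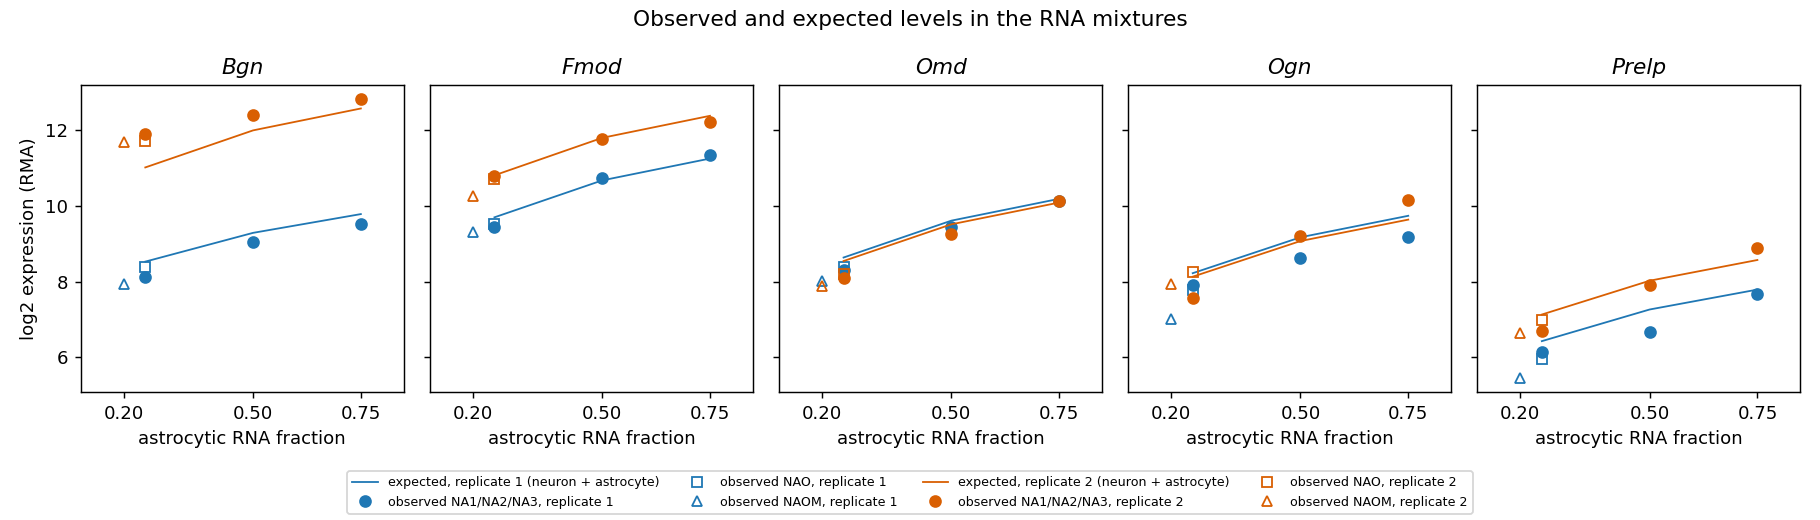
Log2 expression of the 5 astrocyte-high members against the astrocytic RNA fraction, with blue for replicate 1 (A1) and orange for replicate 2 (A4), filled circles for NA1 to NA3, open squares for NAO, open triangles for NAOM, and lines for the level expected from neuronal and astrocytic parents. Fmod and Omd lie near their lines, and Bgn lies above its line in replicate 2 and below it in replicate 1.

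Replacing part of the astrocytic RNA by other glial RNA was read from NAO and NAOM. At the same neuronal fraction, NAO had 0.25 of astrocytic RNA where NA2 had 0.5. Omd fell from 9.44 and 9.25 in NA2 to 8.39 and 8.20 in NAO, a difference of -1.05 ± 0.12 (SE; adjusted p = 0.0101, limma). It was the only member of the 7 called, where 0.197% of all probe sets were called lower. With the replicate block 3 of 7 were lower, where 1.62% of all probe sets were. These were Omd (adjusted p = 0.00173), Fmod (-1.13 ± 0.13, SE; adjusted p = 0.00401) and Prelp (-0.83 ± 0.17, SE; adjusted p = 0.046, limma). Bgn had a difference of -0.67 (adjusted p = 0.0625 under the block, limma). Ogn had -0.89 at its brightest probe set (adjusted p = 0.181 under the block), and 2 of its other 3 probe sets were called lower with it, at -0.87 ± 0.11 and -0.96 ± 0.13 (SE; adjusted p = 0.00689 and 0.00943, limma). The Omd call was lost in 3 of 4 fits that left out 1 array of NA2 or NAO (adjusted p from 0.0512 to 0.0913).

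Between NAO and NAOM the astrocytic fraction went from 0.25 to 0.2, and 0 of the 7 members were called with the block or without it, where 0% of all probe sets were called lower in both fits (limma). At an unadjusted p under 0.05 the count was 1 without the block, for Omd (-0.36 ± 0.12, SE; unadjusted p = 0.0215), and with a trended and robust variance the count of calls was again 0. The differences of the 5 astrocyte-high members were all negative, from -0.55 for Ogn to -0.24 for Bgn, a direction fixed by the lower astrocytic fraction.

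Levels expected from the parents and the stated fractions were set beside those observed. Over the 5 astrocyte-high members and 10 mixture arrays, observed minus expected had a median of -0.19 and a range of -0.90 to 0.94. It was within 0.5 for 40 of the 50 values and above 0 for 13. Over all probe sets with an expected level above 8, the median per array was -0.08 to -0.01. On every array 5% of these probe sets fell below a limit no lower than -0.43, and 5% exceeded a limit no higher than 0.39. The range of the members went beyond these limits on both sides. A full range of 50 values is wider by its nature than limits that leave out 5% at each end. How closely the members followed the fractions was therefore not ranked against other probe sets. Some member values had an expected level below 8, such as those of Prelp in NAOM and the lowest value, that of Ogn in replicate 1 of NAOM. Fmod stayed nearest, at -0.26 to 0.10. Omd was between -0.45 and 0.04 and above expectation on 1 of 10 arrays. Prelp was between -0.73 and 0.32 and Ogn between -0.90 and 0.52. Bgn split by replicate, at -0.41 to -0.10 in replicate 1 and 0.25 to 0.94 in replicate 2. In replicate 2 its excess was smallest in NA1, with the most astrocytic RNA, and largest in NAOM, with the least.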

How the data were processed

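Per the labels, RNA was extracted with TRIzol and a column clean-up and labelled with biotin. The deposited values are log2 expression that the authors made with RMA in the affy package, per the submitters' processing notes; versions are not given in the sources used here. They were used as they stand. Of 31099 probe sets 57 were controls, and the other 31042 all entered the tests, dim ones included. A symbol was given for 20826 (436 had several and 9780 none), and 20758 matched GRCr8 by gene identifier, with 0 symbols changed. A gene was represented by its probe set with the highest mean over 26 arrays.

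Cultures and mixtures were fitted separately with limma 3.58.1 (lmFit, eBayes, R 4.3.3), 1 mean per group, or intercept and slope for NA1 to NA3. Adjustment was by Benjamini-Hochberg over all probe sets of a contrast. Culture calls needed an adjusted p under 0.05 and a log2 difference of at least 1, mixture calls the p alone. Expected mixture levels were log2 of the fraction-weighted sum of the parents' linear values. Named genes were the 7 members, the 3 genes with the highest r for each member above the array medians, and, in each of 16 lists (187 genes, 169 measured), up to 3 called genes each way in the astrocytic comparison; others are said to be chosen after their values. Markers of cell types were named as values beside a result. The members and lists were chosen with earlier results of these data known. Scripts were tested on simulated data.

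Replicate numbers paired the mixtures, which share parents per the labels: residuals of same-numbered mixtures correlated at 0.381 to 0.873 over 20 pairs. With 2 arrays per mixture, each pair of replicate 2 repeats the value of its replicate 1 pair. Over all probe sets the replicate numbers did not pair the cultures (-0.107 to 0.178 over 24 pairs, 5 above 0.1). For Bgn, replicate 2 was lowest in neuronal, oligodendrocytic and microglial cultures, and replicate 1 in astrocytic ones. The block took the SE of its astrocytic difference from 0.41 to 0.29, while that of Dcn and Lum rose. Alternatives were the replicate block, arrays centred on their medians, cultures or mixtures quantile-normalized on their own, leaving out the dimmest 25% of probe sets, a trended and robust variance, array weights, other minima, the dimmest probe set of a gene and leaving out each replicate. Python 3.11.15, pandas 2.3.3, numpy 2.4.6 and matplotlib 3.10.9 were also used.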

Additional observations from a re-analysis of the deposited data

Results flagged for a closer look

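The 4 replicates of each culture were compared for each of the 10 member probe sets, 40 groups in all, and 4 held an array whose distance to its nearest neighbour took up 0.846 to 0.954 of the range of the group, above the critical value of Dixon for 4 samples; chance alone gives this in about 1 of 20 groups. Fmod in A4 measured 12.78, where A1 to A3 lay between 11.65 and 11.70. Fmod in N3 measured 5.75, where the other neuronal arrays lay between 4.91 and 5.04. Omd in M2 measured 4.35, where the other microglial arrays lay between 3.72 and 3.81. The dimmest Ogn probe set measured 3.67 in O1, where the other oligodendrocytic arrays lay between 3.10 and 3.17. Of these, the values in M2 and O1 lie below the median of every array.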

How the results depend on the processing

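The count of 5 members higher in astrocytic cultures was the same under every alternative run, including each left-out array and the replicate block, which gave 5 as well. Lower calls in neuronal, oligodendrocytic and microglial cultures went from 5 to 2 each with a minimum log2 difference of 2, and ranged from 4 to 5 when single arrays were left out. For the slope on the neuronal fraction the paired fit with the replicate block called 5 members in place of 2, and leaving out either replicate also gave 5. For NAO against NA2 the replicate block called 3 in place of 1, and leaving out 1 array gave 0 to 1. The median of observed minus expected mixture levels, -0.19, became 1.79 when log2 values were mixed in place of linear ones. In the other 148 recomputed counts and medians the direction was kept and a count stayed within 1.5 times its main value. The cause of the changed calls was not tested, beyond that the block takes out the difference between parent cultures. Genes with signals below the array medians (Dcn and Lum throughout, and Fmod, Omd, Ogn and Prelp outside astrocytic cultures) have no resolved order, and 4 arrays per culture and 2 per mixture limit the precision.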
